A study of Mus musculus with 6 samples.

Results

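The 10 Kruppel-like factor genes Klf2, Klf3, Klf4, Klf5, Klf6, Klf7, Klf9, Klf10, Klf13 and Klf15 were followed in sorted collecting duct cells of newborn mice, either null or wild type for Bdkrb2, the bradykinin B2 receptor gene. Their probes were taken as every probe that is not a control spot and whose RefSeq accession belongs to 1 of these symbols. Each gene had 1 probe, and the set is 10 of the 20887 genes that could be named on the array. On all 6 arrays each of the 10 gave a Cy5 signal well above background, and all 10 are among the 14586 tested genes. MUT pools 1 to 3 came from Hoxb7cre+; R26RtdTomato; Bdkrb2f/f kidneys and WT pools 1 to 3 from Hoxb7cre+; R26RtdTomato; Bdkrb2+/+ kidneys, all C57BL/6, salt-stressed and taken at postnatal day 1. Both groups therefore carried the Cre driver of the ureteric bud lineage, which gives rise to the collecting duct, and the tdTomato reporter. Cells were sorted for GFP and tdTomato, and each sample is a pool (the sources used here do not give how many animals it holds). Each pool was labelled in Cy5 and set against Cy3-labelled RNA of WT pool 1 on a 2-colour oligonucleotide array, which makes the array of WT pool 1 a self-comparison.

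Kruppel-like factors are transcription factors that bind GC-rich DNA and CACCC boxes through zinc fingers at the C-terminal end of the protein. The zinc fingers are alike across the family, while the rest of the protein differs and sets which partners are recruited. Klf2, Klf4, Klf5, Klf6 and Klf7 belong to a branch that mostly activates, Klf3 to a branch that represses through the corepressor CtBP, and Klf9, Klf10 and Klf13 to a branch that binds the corepressor Sin3A. Klf15 stands apart from these branches and is known for roles in metabolism and in podocytes, the filtering cells of the glomerulus.

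The promoters of Klf2, Klf4, Klf9 and Klf3 are shown because these genes span the outcomes: Klf4 fell most, Klf2 and Klf9 fell with more spread, and Klf3 did not pass the test. Each sequence runs from 250 bases before to 50 bases after the gene's start, 5′ to 3′ on the gene's strand, from RefSeq on GRCm38.p6, with capitals on the motifs found.
Klf2, chr8:72318812-72319111, plus strand: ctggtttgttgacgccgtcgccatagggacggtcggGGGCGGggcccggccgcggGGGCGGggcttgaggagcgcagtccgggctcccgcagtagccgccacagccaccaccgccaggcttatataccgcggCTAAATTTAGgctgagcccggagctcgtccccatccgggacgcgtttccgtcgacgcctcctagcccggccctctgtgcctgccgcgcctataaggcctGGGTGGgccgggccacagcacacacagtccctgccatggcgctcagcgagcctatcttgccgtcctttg
Klf4, chr4:55532426-55532725, minus strand: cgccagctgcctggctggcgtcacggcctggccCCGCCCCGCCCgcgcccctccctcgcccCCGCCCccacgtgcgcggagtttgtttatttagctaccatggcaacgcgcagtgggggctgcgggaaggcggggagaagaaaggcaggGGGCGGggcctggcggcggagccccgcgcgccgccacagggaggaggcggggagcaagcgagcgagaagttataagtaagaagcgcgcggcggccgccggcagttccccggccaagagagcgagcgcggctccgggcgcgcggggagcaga
Klf9, chr19:23140976-23141275, plus strand: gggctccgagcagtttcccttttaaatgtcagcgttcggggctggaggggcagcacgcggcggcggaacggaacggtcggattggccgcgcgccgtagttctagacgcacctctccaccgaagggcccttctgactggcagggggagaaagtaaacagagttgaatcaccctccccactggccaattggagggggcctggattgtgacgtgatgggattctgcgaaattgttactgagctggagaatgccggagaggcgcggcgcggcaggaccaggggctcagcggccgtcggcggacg
Klf3, chr5:64803271-64803570, plus strand: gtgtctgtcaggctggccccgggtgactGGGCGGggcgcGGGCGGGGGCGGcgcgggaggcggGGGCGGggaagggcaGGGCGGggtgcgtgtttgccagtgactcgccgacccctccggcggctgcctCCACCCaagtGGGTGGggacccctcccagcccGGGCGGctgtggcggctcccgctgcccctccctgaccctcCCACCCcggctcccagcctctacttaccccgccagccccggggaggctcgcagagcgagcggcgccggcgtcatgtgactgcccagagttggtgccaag
The search covered both strands for the GC box GGGCGG, the CACCC box CCACCC, the cyclic AMP response element TGACGTCA and the MEF2 site CTANNNNTAG. Promoter entries were found for 8 of the 10 factors. A GC box lay in 7 of the 8, against 35.7% of 32851 RefSeq promoters of this length. Klf4 held 4 GC boxes, the first 2 overlapping, while Klf3 held 6 GC boxes and 3 CACCC boxes, and Klf9 held none of the 4 motifs as searched. The search asked for a further C before CACCC, and the Klf9 window holds CACCC without it. A CACCC box lay in 4 of the 8, against 31.5% of promoters. The MEF2 pattern, with any base allowed at each N, lay in Klf2 alone among the 8, and in 3.7% of all promoters. None of the 8 held the cyclic AMP response element, which 1.8% of promoters hold. These matches describe the letters of the window and were not tested as sites.

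Of the 10 factors, 6 were lower in MUT than in WT pools and none was higher (0 also at an unadjusted p under 0.05, limma). By point estimate Klf4, Klf9, Klf15 and Klf6 fell by at least 2-fold, and Klf2 and Klf5 fell by less. Of the 6, only the confidence interval of Klf4 lay wholly beyond a 2-fold fall (upper limit -1.13, log2). The upper limits were -0.58 for Klf9, -0.73 for Klf15 and -0.78 for Klf6. The lower limits of Klf2 and Klf5 were -1.41 and -1.05, so this split at 2-fold was not resolved. Klf3, Klf7, Klf10 and Klf13 did not pass the test. Across all tested genes 18.9% were called lower, 14% higher and 32.9% in either direction (limma, adjusted p under 0.05), against 60% of the factors called lower. By probe these shares were 14.7%, 11.6% and 26.2%. The median log2 difference of the 10 was -0.78, beside -0.02 for all tested genes. The groups stood fully apart for 6 factors, a share of 60% that is near the 52.6% found over all tested genes.

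These directions are relative to the typical probe on the array. With each array set to its 10 spike-in control probes after loess, the median tested probe was 0.96 higher in MUT pools on the log2 scale. In that setting 0 factors were called lower (limma, 0 at an unadjusted p under 0.05), Klf7, Klf10 and Klf13 were called higher, and Klf2 and Klf5 stood at 0.13 and 0.235. There 61.5% of all tested genes were called higher and 1.12% lower, so that 3 of 10 factors higher is below the general share. Setting an array to its spike-in controls adds 1 constant to all its probes and leaves the order of the genes as it was. In that fit each of the 10 factors had the same SE of 0.383. The spike-in shift of an array ran from -0.07 to 0.94 among WT pools alone, and its error is shared by all probes. Calls and shares with the spike-in controls, here and below, therefore describe that scaling and are not independent tests of genes. After loess 2.37% of tested genes lay below Klf4, 3.67% below Klf9, 4.84% below Klf15, 5.29% below Klf6, 7.76% below Klf2 and 9.69% below Klf5. With 1 pool left out, the share ran over 2.11% to 3.17% for Klf4, 2.32% to 6.97% for Klf9, 3.94% to 15.9% for Klf2 and 7.64% to 13.7% for Klf5. With the slide row as a block it was 16.3% for Klf5. Levels below are log2 ratios of a pool to WT pool 1 after loess, and differences are MUT minus WT on that scale.

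**Figure D1:**
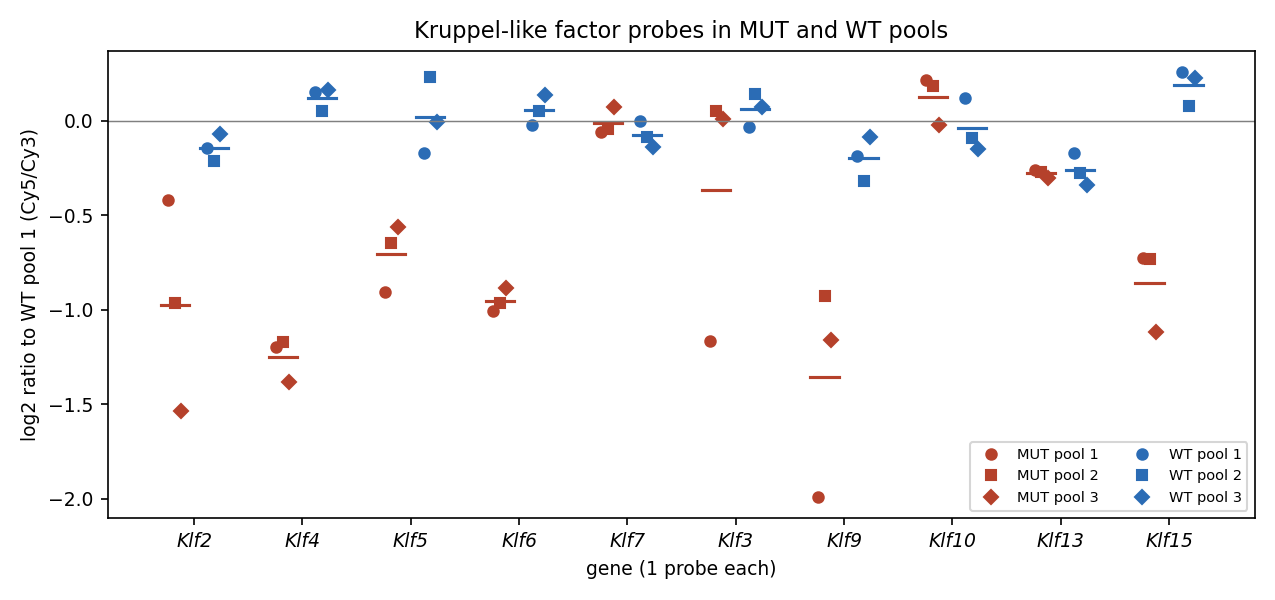
Log2 ratio of each pool to WT pool 1 RNA (Cy5 over Cy3, vertical axis) for the 10 factors (horizontal axis), with MUT pools left of WT pools, a point for each pool and bars for group means. MUT pools lie below all WT pools for Klf2, Klf4, Klf5, Klf6, Klf9 and Klf15, and the groups overlap for Klf3, Klf7, Klf10 and Klf13; with the spike-in controls no factor was called lower.

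Klf4, a factor of epithelial differentiation and cell cycle arrest that has been reported to act on the Bdkrb2 promoter, showed the lowest difference of the 10. Its log2 ratio was -1.20, -1.17 and -1.38 in MUT pools 1 to 3, against 0.15, 0.05 and 0.16 in WT pools 1 to 3. The MUT pools lay close together and far below every WT pool. The means were -1.25 ± 0.12 in MUT and 0.12 ± 0.06 in WT pools (SD, n = 3 each), a 2.59-fold fall (log2 -1.37 ± 0.10 SE, n = 3 each, adjusted p = 0.000376). The background-subtracted Cy5 signal, before any normalization, was 1486.5, 1591.5 and 1112 in MUT pools 1 to 3, against 3134.5, 1925 and 2703 in WT pools 1 to 3. Klf4 was the 1 factor of the 10 whose MUT signals all lay below its WT signals on that raw scale.

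Klf6, a widely expressed factor that responds early to injury and growth signals, changed almost equally in the 3 MUT pools. The pools had log2 ratios of -1.004, -0.97 and -0.89 in MUT pools 1 to 3, against -0.02, 0.05 and 0.14 in WT pools 1 to 3. The spread among MUT pools (SD 0.06) was the smallest of the 6 factors that fell. The fall was 2.01-fold (log2 -1.01 ± 0.10 SE, n = 3 each, adjusted p = 0.000554).

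Klf2, a factor of quiescent endothelium that is induced by blood flow through MEF2, varied widely among MUT pools. Its log2 ratio was -0.42, -0.96 and -1.54 in MUT pools 1 to 3, against -0.14, -0.21 and -0.07 in WT pools 1 to 3. MUT pool 1 stood just below the WT range and MUT pool 3 far below it. The fall was 1.78-fold (log2 -0.83 ± 0.25 SE, n = 3 each, adjusted p = 0.043). The call was lost without MUT pool 2, MUT pool 3 or any 1 of the WT pools (adjusted p from 0.0655 to 0.142), and kept without MUT pool 1. The difference was -1.11 without MUT pool 1 and -0.55 without MUT pool 3, and between -0.87 and -0.80 with any of the other 4 pools left out.

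Klf5, which promotes proliferation of epithelia, showed the smallest fall of the 6. Log2 ratios were -0.91, -0.65 and -0.56 in MUT pools 1 to 3, against -0.17, 0.23 and -0.01 in WT pools 1 to 3. The groups were apart, with MUT pool 3 and WT pool 1 the closest. The fall was 1.65-fold (log2 -0.72 ± 0.14 SE, n = 3 each, adjusted p = 0.00863). In the Cy5 signal before normalization the groups overlapped, at 287, 388 and 381 in MUT pools 1 to 3, against 474, 381 and 377 in WT pools 1 to 3.

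Klf7, the remaining activator, is best known from neurons. Log2 ratios were -0.06, -0.04 and 0.07 in MUT pools 1 to 3, against 0.00, -0.08 and -0.14 in WT pools 1 to 3. The groups overlapped within a narrow range. The difference was 0.07 ± 0.10 (SE, n = 3 each, adjusted p = 0.652), with a 95% confidence interval from -0.16 to 0.29.

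Klf3, the CtBP-binding repressor, split the MUT pools. Its log2 ratio was -1.16, 0.05 and 0.01 in MUT pools 1 to 3, against -0.03, 0.14 and 0.08 in WT pools 1 to 3. MUT pool 1 was low, and the other 2 MUT pools lay within the WT range. The difference was -0.43 ± 0.30 (SE, n = 3 each, adjusted p = 0.331), and -0.03 without MUT pool 1. Its 95% confidence interval, from -1.12 to 0.27, is the widest of the 10.

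Of the Sin3A-binding factors, Klf9 fell while Klf10 and Klf13 did not pass the test. Klf9, a target of glucocorticoid and thyroid hormone, had log2 ratios of -1.99, -0.92 and -1.16 in MUT pools 1 to 3, against -0.18, -0.32 and -0.09 in WT pools 1 to 3. MUT pool 1 was the lowest, as for Klf3, and all 3 MUT pools lay below the WT range. The fall was 2.24-fold (log2 -1.16 ± 0.25 SE, n = 3 each, adjusted p = 0.0128), and the call was lost without WT pool 3 (-1.11, adjusted p = 0.0614).

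Klf10, first described as an early gene induced by TGF-beta, had log2 ratios of 0.21, 0.18 and -0.02 in MUT pools 1 to 3, against 0.12, -0.09 and -0.15 in WT pools 1 to 3. The groups overlapped, with a difference of 0.16 ± 0.12 (SE, n = 3 each, adjusted p = 0.341) and an interval from -0.11 to 0.44. Klf13, known from lymphocytes and heart, had log2 ratios of -0.26, -0.27 and -0.30 in MUT pools 1 to 3, against -0.17, -0.28 and -0.34 in WT pools 1 to 3. Its MUT pools sat inside the WT range, with a difference of -0.02 ± 0.10 (SE, n = 3 each, adjusted p = 0.92) and an interval from -0.24 to 0.20.

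Klf15, a kidney-enriched factor that governs glucose and amino acid metabolism, was lower in every MUT pool. Its log2 ratio was -0.72, -0.73 and -1.12 in MUT pools 1 to 3, against 0.26, 0.08 and 0.23 in WT pools 1 to 3. The WT pools lay above 0 and the MUT pools well below it. The fall was 2.06-fold (log2 -1.04 ± 0.13 SE, n = 3 each, adjusted p = 0.0015).

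In order of the difference, the factors ran Klf4, Klf9, Klf15, Klf6, Klf2, Klf5, Klf3, Klf13, Klf7 and Klf10, lowest first. The 95% confidence intervals of all neighbours in this order overlapped. The smallest gap was 0.04, between Klf15 and Klf6, and the largest was 0.41, between Klf3 and Klf13.

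**Figure D2:**
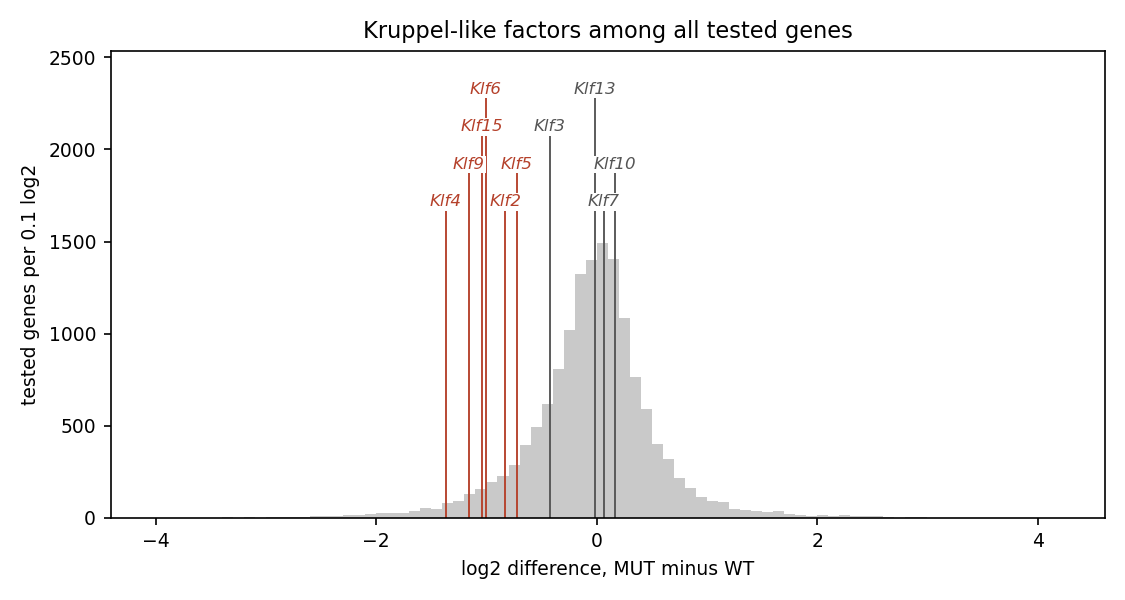
Number of tested genes (vertical axis) by log2 difference, MUT minus WT (horizontal axis), over 14586 genes, with the 10 factors as lines. The 6 factors called lower stand between -1.37 and -0.72, and Klf3, Klf13, Klf7 and Klf10 lie between -0.43 and 0.16; with the spike-in controls the median tested probe moves up to 0.96.

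The Cy3 channel carried the same WT pool 1 RNA on every array and so shows the error of that 1 channel, not that of the ratio. On the self-comparison array of WT pool 1, the ratios of the 10 factors ran from -0.18 (Klf9) to 0.26 (Klf15). The SD of a factor's normalized Cy3 level over the 6 arrays was between 0.04 (Klf7) and 0.12 (Klf5) on the log2 scale. The Cy3 level on MUT arrays minus that on WT arrays was between -0.06 (Klf4) and 0.13 (Klf15). In Cy5 the differences of these 2 factors were -1.43 and -0.96. With the Cy5 channel alone, 5 factors were called lower and Klf2 was not, beside 15.4% of all tested genes called lower.

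All arrays were on 1 slide with 1 scan date, where row 1 held WT pool 1 beside the 3 MUT pools, and row 2 held the other WT pools. With the row as a block, Klf4, Klf6 and Klf15 were called lower (-1.40, -0.93 and -1.12, limma adjusted p of 0.0146, 0.0194 and 0.028). Klf2, Klf5 and Klf9 were not (-0.83, -0.54 and -1.17, limma adjusted p of 0.251, 0.158 and 0.127). In that fit 7.44% of all genes were called lower. These values set the 3 MUT pools against WT pool 1 alone, since row 2 holds no MUT pool. With median centring in place of loess, Klf4, Klf6, Klf9 and Klf15 stayed called, beside 6.29% of all genes called lower.

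**Figure D3:**
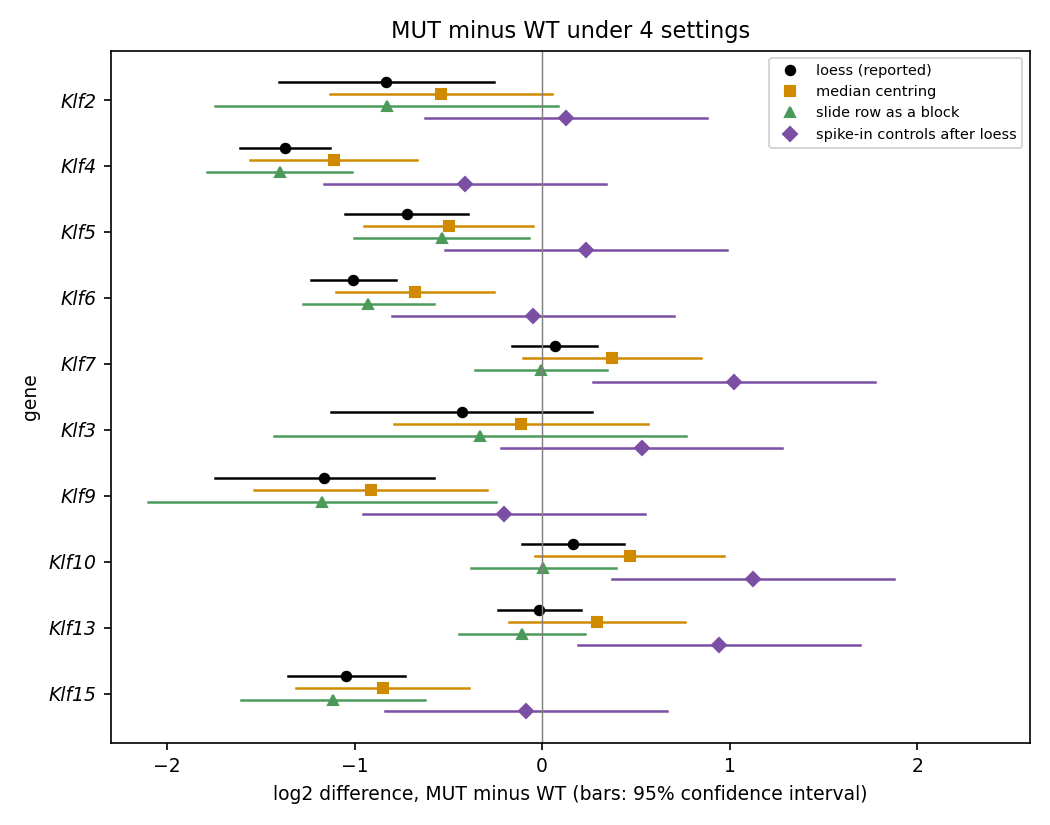
Log2 difference, MUT minus WT (horizontal axis), with its 95% confidence interval for each factor (vertical axis) under 4 settings: loess, median centring, the slide row as a block and the spike-in controls. With the spike-in controls Klf4 stands at -0.41 and Klf10 at 1.12, to the right of their loess values of -1.37 and 0.16.

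Among the 7 other Klf genes on the array, 5 were tested. Klf8, a CtBP-binding relative of Klf3, was called lower and none was called higher (2 at an unadjusted p under 0.05, limma). Klf8 had log2 ratios of -0.16, -0.16 and -0.30 in MUT pools 1 to 3, against 0.30, 0.19 and 0.25 in WT pools 1 to 3. Its groups did not overlap, and its difference of -0.45 ± 0.10 (SE, adjusted p = 0.0122) stood at 0.51 with the spike-in controls. Klf11, a close relative of Klf10, was at 0.58 ± 0.24 (SE, adjusted p = 0.116). Klf14 had an adjusted p of 0.0556, and gets no fold because none of its WT signals was well above background. It was tested only through its MUT signals, so a call of Klf14 as higher carries no weight in the counts here. With median centring Klf11 and Klf14 were called higher (adjusted p of 0.0364 and 0.0145) and 0 of the 5 lower (limma, 0 at an unadjusted p under 0.05). With the spike-in controls 4 were called higher, Klf14 among them, and 0 lower (limma, 4 and 0 at an unadjusted p under 0.05). Klf1 and Klf17 were too dim to test.

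The Sp factors share the zinc fingers and the GC box with the Klf family. Of 6 tested, 2 were higher and 0 lower (1 at an unadjusted p under 0.05, limma). Sp5, a target of Wnt signalling, rose by 1.17 ± 0.15 (SE, adjusted p = 0.00161), with 1.76, 1.51 and 1.35 in MUT pools 1 to 3, against 0.15, 0.59 and 0.37 in WT pools 1 to 3. Sp1, the widely expressed GC box factor, rose by 0.82 ± 0.16 (SE, adjusted p = 0.00896). Sp2, Sp3, Sp4 and Sp6 ranged from -0.32 to 0.26 and were not called. With the spike-in controls 5 were called higher and 0 lower (limma, 5 and 0 at an unadjusted p under 0.05), among them Sp3, Sp4 and Sp6 at 1.082, 1.081 and 1.217.

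Of 16 cofactors and enzymes that act on Klf proteins, 1 was higher and 1 lower. Btrc, which encodes the substrate-binding part of a ubiquitin ligase, rose by 0.55 ± 0.11 (SE, adjusted p = 0.0111). Sin3b, a corepressor, was at -0.38 ± 0.10 (SE, adjusted p = 0.0256), but at 0.58 with the spike-in controls. On the cofactor list 11 were called higher and 0 lower (limma, 13 and 0 at an unadjusted p under 0.05) with the spike-in controls. Of 15 genes known to act on Klf genes, 2 were higher and 1 lower. Mapk7, the kinase ERK5 that acts upstream of Klf2 and Klf4 in endothelium, rose by 0.54 ± 0.09 (SE, adjusted p = 0.00538), and Trp53, which encodes p53, by 0.85 ± 0.21 (SE, adjusted p = 0.023). Tgfbr2, a receptor of TGF-beta, was at -0.38 ± 0.10 (SE, adjusted p = 0.0294), but at 0.58 with the spike-in controls. Mef2a, Mef2c and Mef2d ranged from -0.28 to 0.41 and were not called. Among these 15 regulators 9 were called higher and 0 lower (limma, 10 and 0 at an unadjusted p under 0.05) with the spike-in controls.

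Klf9 and Klf15 are glucocorticoid targets, and other genes induced by glucocorticoids were split. Of 7 tested, 3 were lower and 0 higher (0 at an unadjusted p under 0.05, limma), with a median of 0.05. Mt2, a metallothionein, fell by 2.13 ± 0.23 (SE, adjusted p = 0.000835) and Sgk1, a kinase of sodium transport, fell by 1.72 ± 0.12 (SE, adjusted p = 0.000376). Cebpd, a transcription factor, was at -0.65 ± 0.18 (SE, adjusted p = 0.0333), but at 0.30 with the spike-in controls. Fkbp5, Per1, Tsc22d3 and Zbtb16 ranged from 0.05 to 0.30 and were not called. With the spike-in controls these 4 were called higher, at 1.00 to 1.26, and 1 of the list was called lower.

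Genes reported as Klf targets elsewhere differed by list. In the endothelial list 5 of 5 were lower, with a median of -0.97, but of -0.01 with the spike-in controls, where 0 were called (limma, 0 at an unadjusted p under 0.05). Nos3, the endothelial nitric oxide synthase, fell by 1.11 ± 0.12 (SE, adjusted p = 0.000662). S1pr1, a sphingosine phosphate receptor, fell by 0.98 ± 0.23 (SE, adjusted p = 0.0171) and Thbd, thrombomodulin, by 0.97 ± 0.09 (SE, adjusted p = 0.00051). Endothelial cells express all of these genes, and Cdh5 of this list is also among the endothelial markers below.

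In the epithelial target list 4 of 10 tested genes were lower and 2 higher. Cdh1, E-cadherin, fell by 1.53 ± 0.13 (SE, adjusted p = 0.000449). Cdkn1a, the cell cycle inhibitor p21, was at -0.83 ± 0.10 (SE, adjusted p = 0.000955) and Pdgfa, a growth factor, at -0.76 ± 0.13 (SE, adjusted p = 0.00433), but at 0.13 and 0.20 with the spike-in controls. Ccnb1, a cyclin of mitosis, rose by 0.68 ± 0.14 (SE, adjusted p = 0.00945) and Ccne1, a cyclin of S phase entry, by 0.47 ± 0.12 (SE, adjusted p = 0.0252). In this list 5 were called higher and 0 lower (limma, 5 and 0 at an unadjusted p under 0.05) with the spike-in controls, and 2 higher and 1 lower with median centring. Of 10 targets in metabolism and podocytes, 4 were lower and 0 higher (0 at an unadjusted p under 0.05, limma). Acss1, a mitochondrial acetate enzyme, fell by 2.35 ± 0.28 (SE, adjusted p = 0.00107). Slc2a4, a glucose transporter, was at -0.91 ± 0.19 (SE, adjusted p = 0.0105) and Sco2, a cytochrome oxidase assembly factor, at -0.52 ± 0.11 (SE, adjusted p = 0.0113), but at 0.05 and 0.44 with the spike-in controls, where 3 of the list were called higher and 1 lower.

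Klf2, Klf4, Klf6 and Klf10 can be induced quickly by stress and tissue dissociation, so other genes of that class were set beside them. Of 19 tested, 9 were lower and 2 higher, with a median of -0.38, but of 0.58 with the spike-in controls. With median centring 2 were called lower and 2 higher, and with the spike-in controls 1 lower and 5 higher. Ier3 fell by 2.01 ± 0.16 (SE, adjusted p = 0.000387), Jun by 1.60 ± 0.42 (SE, adjusted p = 0.0271) and Atf3 by 1.46 ± 0.12 (SE, adjusted p = 0.000418). Jun was not called with median centring or with Cy5 alone (limma adjusted p of 0.0569 and 0.069). Hspa1a, a heat shock protein gene, rose by 1.13 ± 0.15 (SE, adjusted p = 0.00193) and Ier5 by 0.52 ± 0.10 (SE, adjusted p = 0.00713). Egr1 and Nr4a1 were at -0.10 and -0.31 and were not called. The list medians were -0.29, -0.34 and -0.64 in MUT pools 1 to 3, against -0.04, 0.00 and -0.03 in WT pools 1 to 3. Their part in the differences of Klf2, Klf4 and Klf6 was not tested.

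**Figure D4:**
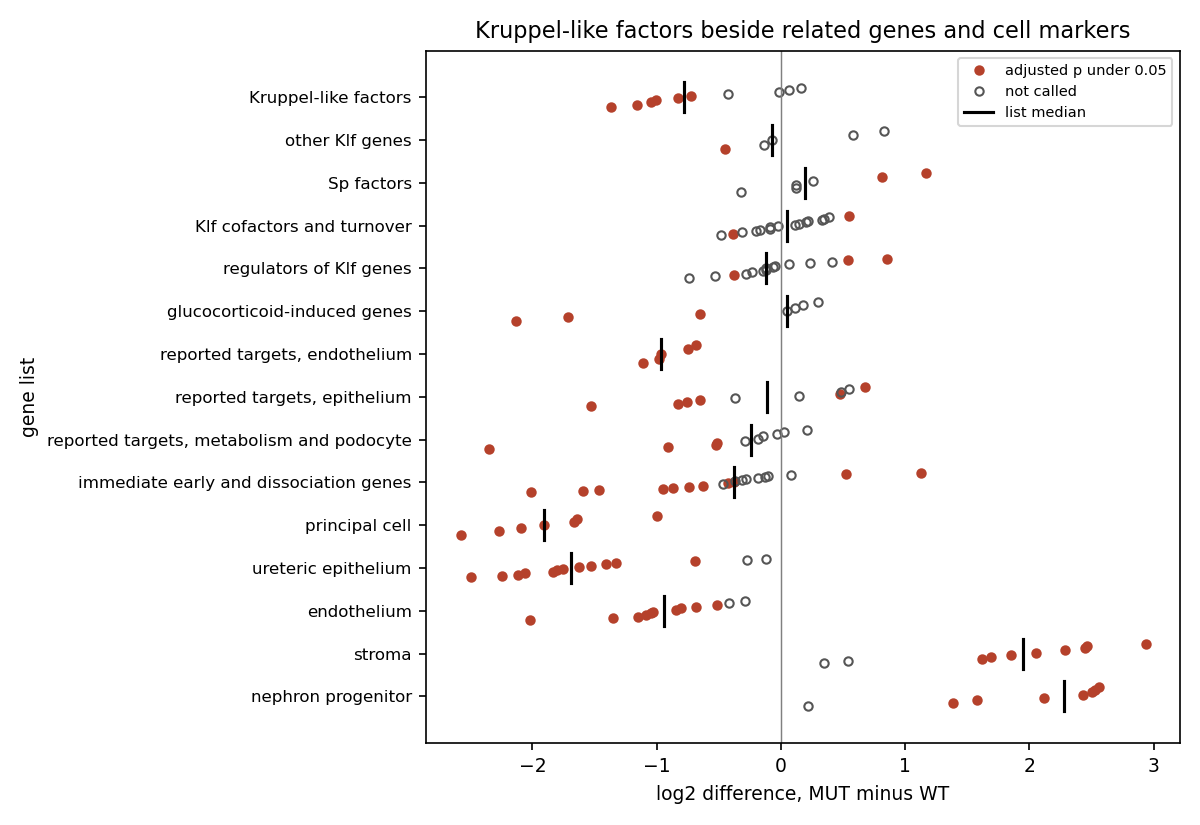
Log2 difference, MUT minus WT (horizontal axis), of each tested gene in the lists named on the vertical axis, with calls at an adjusted p under 0.05 marked and a bar at the list median. The factors have a median of -0.78, the endothelial markers of -0.94 and the immediate early genes of -0.38; with the spike-in controls these medians were 0.18, 0.02 and 0.58.

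Markers of cell types moved with the groups. Of 14 markers of ureteric epithelium, the sorted lineage, 12 were lower and 0 higher (0 at an unadjusted p under 0.05, limma), with medians of -1.91, -1.78 and -1.20 in MUT pools 1 to 3, against -0.04, 0.06 and 0.05 in WT pools 1 to 3. Of 12 endothelial markers, all well above background on every array, 10 were lower and 0 higher (0 at an unadjusted p under 0.05, limma), with medians of -0.76, -0.91 and -0.91 in MUT pools, against -0.03, 0.04 and 0.04 in WT pools. Of 10 stromal markers 8 were higher, with medians of 1.57, 1.35 and 1.30 in MUT pools, against 0.12, -0.94 and -1.43 in WT pools. With the spike-in controls the medians of the ureteric, endothelial and stromal differences were -0.73, 0.02 and 2.91, against -1.69, -0.94 and 1.95 after loess. Of 8 podocyte markers, set beside Klf15, 2 were higher, with a median of 0.19. Other lineages moved as well: 7 of 8 markers of nephron progenitors (median 2.28) and 7 of 9 of leukocytes (median 0.99) were higher. Leukocyte markers were mixed, as 1 of the 9 was called lower and the lowest difference was -0.43. With the spike-in controls 8 leukocyte markers were called higher and 0 lower (limma, 8 and 0 at an unadjusted p under 0.05). Lower were 7 of 7 markers of principal cells (median -1.91), 8 of 8 of intercalated cells (median -2.46) and 8 of 8 of loop of Henle and distal tubule (median -2.41). So were 3 of 10 proximal tubule markers (median -0.35) and 3 of 3 erythroid markers (median -2.48), while 1 of 5 smooth muscle markers was higher (median 0.62). With the spike-in controls 2 proximal tubule markers were called higher and 0 lower (limma, 3 and 0 at an unadjusted p under 0.05). Their median there was 0.61, and -0.01 with median centring. Higher with the spike-in controls were 5 of 8 podocyte (median 1.14) and 5 of 5 smooth muscle markers (median 1.58). In that setting 4 of 7 principal cell, 7 of 8 intercalated cell and 3 of 3 erythroid markers were called lower. So were 6 of 8 of loop of Henle and distal tubule. The part of these markers in the falls of the factors was not tested, and in such pools fewer cells of a type and less RNA per cell cannot be told apart. For Bdkrb2 itself no array gave a signal well above background in either channel, with log2 ratios of -0.02, 0.05 and -0.08 in MUT pools, against 0.12, 0.09 and -0.16 in WT pools, so it gave no check of the labels (exact two-sided permutation test, p = 0.8, where the smallest possible is 0.1).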

How the data were processed

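The authors deposited 6 Agilent scanner files of mouse oligonucleotide arrays (Feature Extraction 10.7.3.1 according to the submitters' processing notes), with 59305 spots of 55681 probes, 0.5 µg of RNA per labelling reaction per the labels, and no dye swap. The deposited files hold spot intensity and local background as median signals, and a log10 ratio of Cy5 over Cy3. The deposited value table repeats that log10 ratio to within 0.00499. With so few arrays, their number sets the precision.

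Intensity was background-corrected with normexp (offset 50) and log2 ratios of the deposited intensity were normalized by loess within arrays, which understates folds of dim probes. Control and outlier spots were excluded. No spot on the arrays was saturated. A probe was tested if its Cy5 signal was well above background throughout at least 1 group (29003 probes, 52.1%). RefSeq accessions were matched to a GRCm38.p6 table, which named 27509 probes of 20887 genes. Genes were represented by their brightest tested probe.

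MUT was compared with WT in limma (lmFit and eBayes) over all 6 arrays with no covariate, adjusting p by Benjamini-Hochberg across the tested probes and calling an adjusted p under 0.05. Nothing in the labels says that pools came from separate litters, so p-values measure the spread between pools, which may be technical. The text names all 10 factors and, in each other list, up to 3 called genes with the largest change per direction; uncalled relatives were named after their values were seen. The factors and lists were chosen with earlier results of these data known. Alternatives covered background, normalization, filter, channel, probe choice, each pool left out, pool number and slide row as blocks, and the variance model. The code was tested on simulated data, where it recovered 20.9%, 64.2% and 92.4% of log2 changes of 0.5, 1 and 2. Median estimates there were 0.383, 0.874 and 1.59, and 9 of 127 calls fell on unchanged probes. R 4.3.3, limma 3.58.1, the data.table package (1.17.8), Python 3.11.15 and matplotlib 3.10.9 were used.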

Additional observations from a re-analysis of the deposited data

How the results depend on the processing

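Under no background correction, the mean of probes, the stricter filter, trend and robust variance, array weights and pool number as a replicate block, the number of factors called lower stayed at 6. In these settings 17.9% to 24.5% of all genes were called lower. The number was 5 with an offset of 16, no filter, the scanner software's log10 ratio and Cy5 alone. There 13.1% to 17.7% of all genes were called lower, and Klf2 was the factor lost each time. Median centring gave 4, the slide row as a block 3, and the spike-in controls 0, where 3 were called higher. The shares of all genes called lower were 6.29%, 7.44% and 1.12% in these settings, and 61.5% were called higher with the spike-in controls. Leaving out 1 pool gave between 4 and 6 lower and 0 higher, beside 11.3% to 22.7% of all genes called lower. Among the factors called in either setting, the sign turned for Klf2 at 0.13, Klf5 at 0.235 and Klf13 at 0.94 with the spike-in controls. Signs also turned without a call for Klf3 (0.53, spike-in controls), Klf7 (-0.007, slide row) and Klf13 (from 0.03 to 0.29 over median centring, the scanner's ratio, Cy5 alone and without WT pool 1). The spike-in shift was -0.79, -0.64 and -0.26 in MUT pools 1 to 3, against -0.07, 0.31 and 0.94 in WT pools 1 to 3, and the cause was not tested. Of all called probes 44.1% were higher, against 77.3% with median centring and 98.9% with the spike-in controls. The 7602 called probes became 19015 with the spike-in controls, 2189 with the slide row and 3860 without WT pool 3, 4918 without WT pool 1 and 7241 with the replicate block. Same-numbered MUT and WT pools had correlations of deviations of 0.14, 0.07 and 0.20, and each MUT pool correlated best with its own number, a hint from the data and not from the design. With 3 pools a group, differences inside the intervals given for Klf3, Klf7, Klf10 and Klf13 could not be resolved.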

Other observations

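Several genes near the Klf family took an extreme value in MUT pool 1 and are named here after their values were seen. Klf3 and Klf9 were lowest there, at -1.16 and -1.99, as were Jun at -2.52 and Tgfb2 at -1.59. Klf11 was highest there at 1.03, against 0.04 and 0.27 in MUT pools 2 and 3. The SD of log2 ratios over the tested probes was 0.65, 0.55 and 0.50 in MUT pools 1 to 3. The array of MUT pool 1 also had the most outlier spots, 403, against 196 to 246 on the other arrays. Without MUT pool 1, 6 factors were called lower, beside 22.7% of all genes.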
